A study of Mus musculus with 10 samples.

Results

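Complement is a set of plasma and cell surface proteins that mark microbes and dying cells for removal. The classical pathway starts when C1q, a pattern-recognising protein built from 3 kinds of chain, binds its target and activates the attached serine proteases C1r and C1s, which then cut C4 and C2. The inhibitor encoded by Serping1 inactivates C1r and C1s, and factor B forms the protease of the alternative pathway. The liver makes most plasma complement, macrophages are a main source of C1q, and fibroblasts are known to secrete C1r, C1s and several other components.

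The genes described here are 8 complement components and regulators, C1s1, C1qa, C1qb, C1qc, C3, C4b, Cfb and Serping1, found as the probe sets that carry one of these symbols in the annotation of the array. A total of 6 of the 8 had probe sets with a single gene symbol, 8 probe sets in all, among 12393 genes with such a probe set in the series. These 6 were C1s1, C1qa, C1qb, C1qc, Cfb and Serping1. The one probe set that carries C4b carries C4a as well, and C3 was not analysed here. The 8 genes were put together with results of these arrays known, from the same intensities that are compared below. Their levels and differences between groups are therefore a description and carry no test.

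Primary mouse embryonic fibroblasts from E13.5 embryos, on a mixed C57BL/6 and 129 background, were profiled on 10 Affymetrix arrays. They comprise 3 arrays of wild type cells, 3 of Snf5-/- cells, which lack a core subunit of the SWI/SNF chromatin remodelling complex, and 4 of Brg1-/- cells, which lack one of its ATPase subunits. The labels give all 3 groups the same treatment, delivery of Cre recombinase by retrovirus and selection in puromycin at 2.5 ug/ml. They do not say whether replicates are of separate embryos or cultures, and the spread behind each p-value may be technical, being that among these arrays alone. The number of arrays limits the precision.

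By the brighter probe set of each gene, the targeted transcripts followed the labels. The mean intensity of Smarcb1, the gene of Snf5, was 951 ± 147 (SD, n = 3) for wild type arrays and 297 ± 29.8 (n = 3) for Snf5-/- arrays. That of Smarca4, the gene of Brg1, was 2849 ± 853 for wild type and 450.4 ± 105 (n = 4) for Brg1-/-. A dimmer Smarcb1 probe set measured 245.1, 88.2 and 79.3 on wild type and 93.2, 47.5 and 29.4 on Snf5-/- arrays, which overlapped. The dimmer Smarca4 probe set averaged 1049 ± 99.5 for wild type and 217 ± 58.5 for Brg1-/-. The median intensity of an array lay between 146 and 234, and wild type arrays were the brightest. Array values are therefore given as deposited, and differences between groups as log2 of quantile-normalized intensity, with the deposited log2 scale beside them where the scales disagree. An array's background is the brightest of 27 control probe sets for bacterial transcripts and lay between 26.7 and 57.4.

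The fibroblast label was met by its markers. All 12 fibroblast markers, among them Col1a1, Col1a2, Pdgfrb and Vim, lay above background on every array. Their summed level was not equal between groups. After quantile normalization it ranged from 93863 to 101070 in wild type, 118468 to 125200 in Snf5-/- and 91019 to 114514 in Brg1-/-. Of 9 measured hepatocyte markers, 5 (Ttr, Afp, Fgb, Fgg and Ahsg) lay at or below background on all 10 arrays, Alb on 7, Apoa1 on 5, Hpx on 3 and Apoa2 on 0. The summed level of the list ranged from 276 to 321 in wild type, 249 to 296 in Snf5-/- and 254 to 364 in Brg1-/-. The 8 endothelial markers summed to 571 to 602 in wild type, 435 to 559 in Snf5-/- and 469.9 to 642 in Brg1-/-. Of these, Tie1 and Vwf lay at or below background on all 10 arrays, Pecam1 on 9, Emcn on 5, Cdh5 on 4, Esam on 3, Tek on 1 and Kdr on 0. As deposited, Kdr was lower on all mutant arrays (379 to 473 in wild type, 201 to 252 in Snf5-/-, 155 to 239 in Brg1-/-) and Tek higher (37.6 to 52.6, 74.1 to 122.4 and 106.8 to 163). The part of these markers in the complement values was not tested.

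One array stood apart in markers of macrophages and leukocytes. All 20 markers were measured, with the C1q genes left out of the list, and 19 of them were highest on Snf5-/- replicate 2. Summed over the list, the quantile-normalized intensity was 13762 on that array, against 4091 and 3941 on the other Snf5-/- arrays, 3471, 7217 and 4843 on the wild type arrays, and 7184, 4310.2, 3344 and 4772 on the Brg1-/- arrays. None of the defining markers Adgre1, Csf1r and Tyrobp was at or below background on any array, and Ptprc was on 3. C1q differences that rest on Snf5-/- replicate 2 are given with and without it. In bulk RNA such as this, more cells of a type and more RNA per cell cannot be told apart.

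C1s1, the protease that cuts C4 and C2, was about 10.5-fold higher in Snf5-/- than in wild type cells, the largest difference of the members in Snf5-/-. In Brg1-/- cells its arrays overlapped those of wild type cells. Its neighbour C1ra, the gene of the protease C1r that activates C1s, was higher in both mutants. No other protein-coding gene lies between C1s1 and C1ra on chromosome 6 in the RefSeq annotation of GRCm38. The 300-base windows around the start of each gene, most of each lying before the start, from RefSeq on GRCm38.p6, are shown because these neighbours differ in which groups they were high in. Capitals mark letters that match one of 3 motifs searched on both strands, the interferon-stimulated response element core (GAAA, any 2 bases, GAAA), the gamma-activated site (TTC, any 3 bases, GAA), and an NF-kB-like motif (GGGA, any 4 bases, CC).
C1s1, chr6:124542310-124542609, minus strand: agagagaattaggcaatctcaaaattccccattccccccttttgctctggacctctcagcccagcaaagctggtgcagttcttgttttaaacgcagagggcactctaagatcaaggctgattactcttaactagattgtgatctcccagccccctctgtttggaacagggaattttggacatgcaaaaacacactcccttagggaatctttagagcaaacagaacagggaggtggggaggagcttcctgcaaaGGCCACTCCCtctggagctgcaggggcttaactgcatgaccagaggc
C1ra, chr6:124512371-124512670, plus strand: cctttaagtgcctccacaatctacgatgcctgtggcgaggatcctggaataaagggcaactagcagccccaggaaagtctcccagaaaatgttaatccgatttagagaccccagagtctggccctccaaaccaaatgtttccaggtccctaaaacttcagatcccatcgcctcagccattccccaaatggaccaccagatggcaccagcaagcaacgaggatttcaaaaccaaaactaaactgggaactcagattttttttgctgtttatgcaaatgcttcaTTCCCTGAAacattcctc

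The C1s1 window held 1 NF-kB-like match, on the other strand, just after the gene start. The second C1s1 window in the table, for another start, overlaps this one and held the same match. C1ra held 1 gamma-activated site match, and neither gene held the interferon-stimulated response element core. Of 32851 windows of this length in the RefSeq table, 20.7% held the NF-kB-like letters, 8.3% the gamma-activated site and 3.44% the interferon-stimulated response element core. These matches describe the letters of the windows and are not evidence of binding.

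C1s1 measured 131, 159 and 124 intensity units on the wild type arrays, 569, 836 and 3590 on the Snf5-/- arrays, and 110, 132, 141 and 333 on the Brg1-/- arrays. Every Snf5-/- array lay above every wild type and every Brg1-/- array, and replicate 3 lay far above the other Snf5-/- arrays. As deposited, Brg1-/- replicate 4 lay above the wild type range, replicate 1 below it and the other two inside it. After quantile normalization replicates 2, 3 and 4, at 160.4, 149 and 366, lay above the wild type values of 103.5 to 140.3, and replicate 1, at 133, inside them. The log2 difference was 3.39 ± 0.53 (SE) for Snf5-/- against wild type, and 2.66 without Snf5-/- replicate 3. For Brg1-/- against wild type it was 0.64 ± 0.50, or 0.31 without Brg1-/- replicate 4, and the groups overlapped. Directly between the mutants, Brg1-/- was lower by a log2 difference of -2.74 ± 0.50, or -2.02 without Snf5-/- replicate 3. On Snf5-/- replicate 3, where C1s1 was highest, the sum of the leukocyte markers was 3941, inside the range of the wild type arrays. The part of these markers in the C1s1 values was not tested. The probe set of C1s1 is of a design that can match more than one transcript. Its close relative C1s2 was not analysed here, and whether the probes also read C1s2 was not tested.

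C1ra is no member of the set and was tested. It passed the filter on dim probe sets, described below, through mutant arrays. On the wild type arrays it was dim, at 78.3, 77.2 and 90.5 after quantile normalization, and its p-values carry that limit. C1ra measured 97.7, 88.9 and 99.9 on the wild type arrays, 426, 428 and 1346 on the Snf5-/- arrays, and 379.9, 286.5, 519 and 574 on the Brg1-/- arrays. All 7 mutant arrays lay above all wild type arrays, and Snf5-/- replicate 3 was again the highest. C1ra rose in Snf5-/- by a log2 difference of 2.98 ± 0.34 (SE), with limma adjusted p = 0.000125, or 2.51 without Snf5-/- replicate 3 (0.000128), and in Brg1-/- by 2.59 ± 0.31, with limma adjusted p = 0.000118. Between Brg1-/- and Snf5-/- its difference of -0.39 ± 0.31 did not pass (limma adjusted p = 0.506), and without Snf5-/- replicate 3 it was 0.08. A dimmer probe set that carries both C1ra and its copy C1rb measured 20.8, 56.8 and 41.1 on wild type, 108, 103 and 156.5 on Snf5-/- and 36, 56.7, 43.8 and 63.3 on Brg1-/- arrays. On that probe set the Brg1-/- arrays overlapped the wild type arrays, where the C1ra probe set did not.

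**Figure D1:**
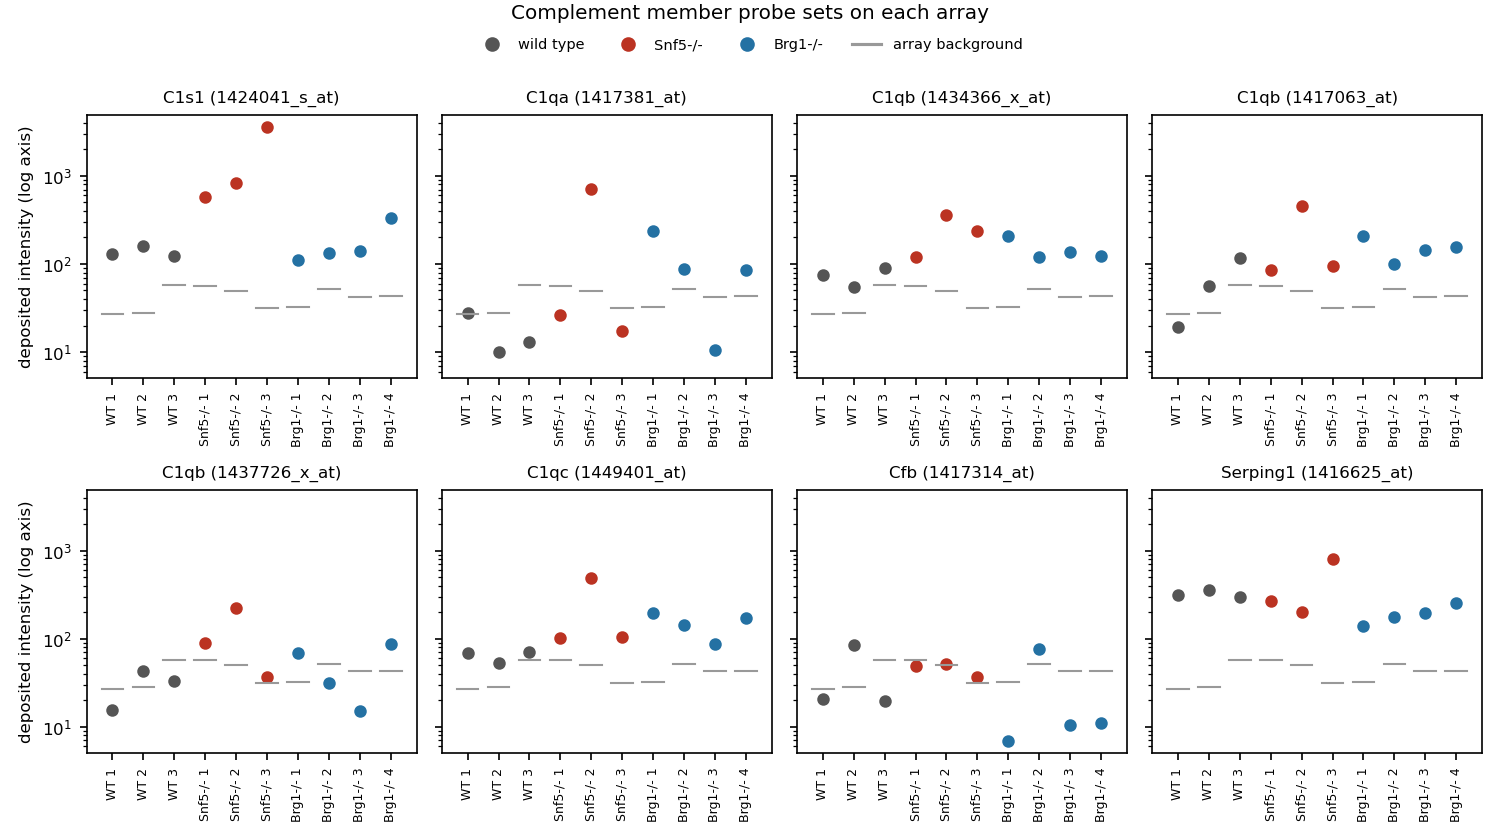
Deposited intensity (log axis) of the 8 member probe sets on each of the 10 arrays, coloured by group, with a grey bar at the background of the array. C1s1 is high on all 3 Snf5-/- arrays, up to 3590, the C1q probe sets peak on Snf5-/- replicate 2, and Cfb lies near background.

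The genes of the C1q chains were measured at low intensity. C1qc and, by the brightest of its probe sets, C1qb were higher in both mutants than in wild type, while the C1qa arrays of the groups overlapped. C1qa, C1qc and C1qb encode the A, C and B chains, which assemble together, and lie side by side on chromosome 4 with no other protein-coding gene between them. The windows of C1qb and C1qc are shown because both neighbours lay above wild type in both mutants, C1qb by its brightest probe set, and the RefSeq table used here was without an entry for C1qa. Capitals mark the motifs given above.
C1qb, chr4:136886151-136886450, minus strand: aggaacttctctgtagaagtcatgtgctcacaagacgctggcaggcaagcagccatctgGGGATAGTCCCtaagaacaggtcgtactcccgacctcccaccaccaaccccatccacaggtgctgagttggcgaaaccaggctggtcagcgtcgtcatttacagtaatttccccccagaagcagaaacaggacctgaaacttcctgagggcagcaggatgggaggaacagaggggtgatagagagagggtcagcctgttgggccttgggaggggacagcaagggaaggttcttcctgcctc
C1qc, chr4:136892865-136893164, minus strand: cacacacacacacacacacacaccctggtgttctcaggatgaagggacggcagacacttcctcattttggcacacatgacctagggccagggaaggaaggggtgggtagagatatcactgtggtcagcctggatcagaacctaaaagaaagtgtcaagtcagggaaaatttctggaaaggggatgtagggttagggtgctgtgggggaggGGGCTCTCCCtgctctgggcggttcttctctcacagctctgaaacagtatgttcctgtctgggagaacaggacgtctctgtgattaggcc

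C1qb held 2 overlapping NF-kB-like matches, 1 on each strand, and C1qc held 1, a motif found in 20.7% of all windows. Neither held the gamma-activated site or the interferon-stimulated response element core.

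C1qc measured 68.5, 53.4 and 70 intensity units on the wild type arrays, 102, 488.5 and 104 on the Snf5-/- arrays, and 194, 144, 86.5 and 174 on the Brg1-/- arrays. Every mutant array lay above every wild type array, and Snf5-/- replicate 2 lay far above the rest. The log2 difference from wild type was 1.73 ± 0.56 (SE) in Snf5-/-, or 0.93 without Snf5-/- replicate 2, and 1.58 ± 0.53 in Brg1-/-. Without Snf5-/- replicate 2 the difference of Brg1-/- from Snf5-/- was 0.65, against -0.15 ± 0.53 with it, so the order of the mutants turned on that array.

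C1qb had 3 probe sets. The brightest and the third are of a design that can match other transcripts too, and whether they did was not tested. The brightest measured 75.5, 54.7 and 91.1 on wild type, 120.3, 362 and 238 on Snf5-/- and 210.4, 119.8, 135 and 125 on Brg1-/- arrays. As for C1qc, all mutant arrays lay above all wild type arrays. Its log2 difference was 1.85 ± 0.40 (SE) in Snf5-/-, or 1.44 without replicate 2, and 1.39 ± 0.38 in Brg1-/-. The second probe set measured 19.4, 55.8 and 116 on wild type, 85, 450.3 and 93.8 on Snf5-/- and 206, 98.8, 143 and 155 on Brg1-/- arrays. There the Snf5-/- and wild type arrays overlapped, and the Brg1-/- arrays lay above wild type after quantile normalization only, with log2 differences of 1.86 ± 0.72 and 1.91 ± 0.67. In Snf5-/- the difference was 1.04 without Snf5-/- replicate 2. Without wild type replicate 1, where it was dimmest, the differences were 1.15 and 1.20, and without wild type replicate 3 they were 2.50 and 2.55. The third overlapped wild type in both mutants, and its log2 difference was 1.94 ± 0.78 in Snf5-/-, or 1.26 without Snf5-/- replicate 2 and 2.63 without replicate 3, and 0.96 ± 0.73 in Brg1-/-. It lay at or below background on 2 wild type and 2 Brg1-/- arrays.

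C1qa lay at or below background on 5 of 10 arrays. It measured 27.7, 10 and 12.9 on wild type, 26.6, 709 and 17.1 on Snf5-/- and 236, 86.9, 10.5 and 84.8 on Brg1-/- arrays. Snf5-/- replicate 2 and 3 of the 4 Brg1-/- arrays were clear of the wild type values, and the other mutant arrays were not. The log2 difference was 2.45 ± 1.35 (SE) in Snf5-/-, and it ranged from 0.72 without Snf5-/- replicate 2 to 3.47 without replicate 3. In Brg1-/- it was 2.50 ± 1.26, from 1.86 without Brg1-/- replicate 1 to 3.40 without replicate 3. These sizes rest on values below background.

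The leukocyte markers give the setting of these C1q values. Of the 20 markers, 1 was higher on each Snf5-/- array than on any wild type array on the deposited scale (Adgre1, at 346, 884 and 329 against 222 to 313.5). In Brg1-/- 0 were, and 3 of 20 were lower, where 37.6% of all genes were wholly lower as deposited. Of all genes, 4.83% lay wholly above wild type in Snf5-/- and 3.07% in Brg1-/- on both scales. That rule is stricter than the deposited scale alone, by which the markers were counted, and nothing is read from these marker counts. On Snf5-/- replicates 1 and 3 and Brg1-/- replicates 2, 3 and 4, C1qc and the brightest C1qb probe set lay above wild type while the marker sum stayed between 3344 and 4772, inside the wild type range of 3471 to 7217 for all but Brg1-/- replicate 3, which lay below it. The marker sum is unweighted, and Lyz2 was its brightest marker on every array, from 763 to 5092 as deposited. Dimmer markers weigh little in the sum and can move apart from it. Wild type replicate 2 had the highest wild type marker sum and the lowest C1qc and, by its brightest probe set, the lowest C1qb of all arrays as deposited. There the second C1qb probe set, at 55.8, lay between the other wild type arrays, and the third, at 42.7, was the highest of wild type. Within Brg1-/-, replicate 1 had the highest marker sum (7184) and, as deposited, the highest C1qa (236), C1qc (194) and brightest C1qb probe set (210.4). Replicate 3 of that group had the lowest sum (3344), C1qa (10.5) and C1qc (86.5), and replicate 2 the lowest of that C1qb probe set (119.8). On Snf5-/- replicate 2 the markers and all 3 C1q genes were highest together. The part of the markers in the C1q values was not tested on any array.

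**Figure D2:**
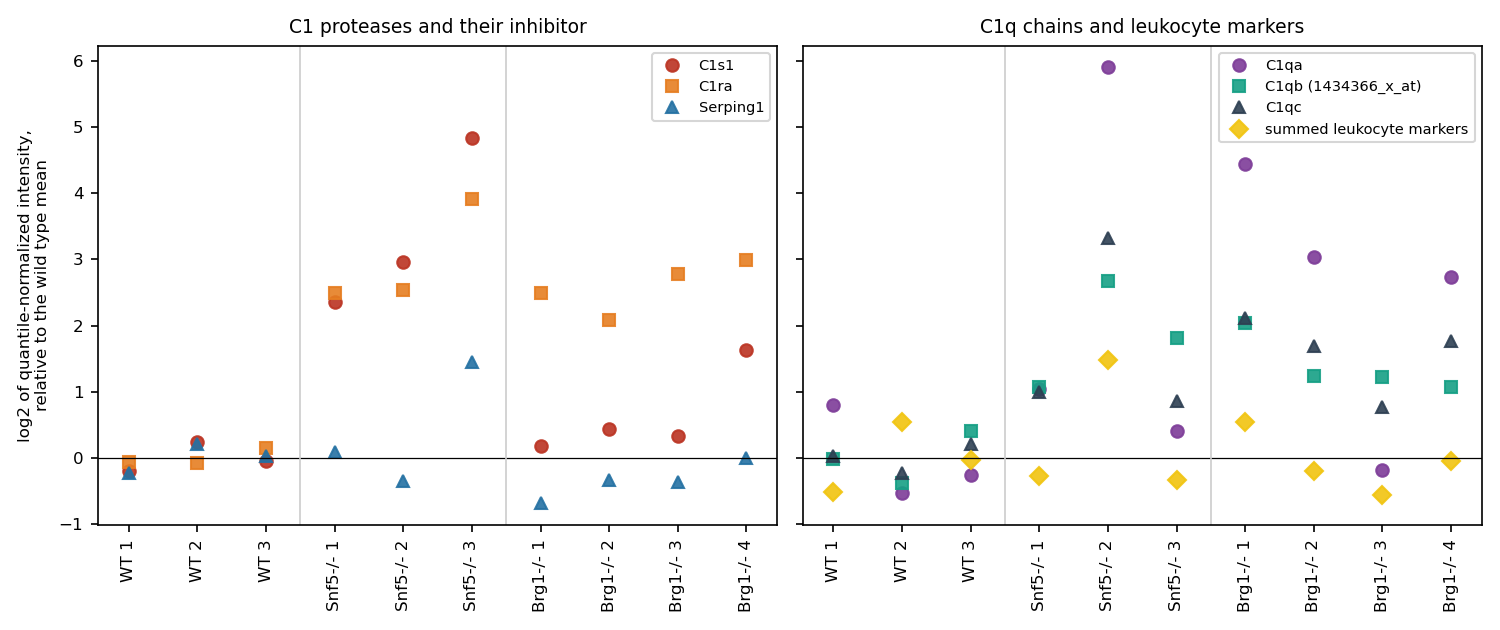
Log2 of quantile-normalized intensity on each array relative to the wild type mean, for C1s1, C1ra and Serping1 at left, and for C1qa, C1qb, C1qc and the summed leukocyte markers at right. C1ra is above 0 on all 7 mutant arrays, C1s1 is highest on the Snf5-/- arrays, and the C1q genes and leukocyte markers peak together on Snf5-/- replicate 2.

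Serping1, which encodes the inhibitor of C1r and C1s, had no common direction in Snf5-/-. It measured 313, 353 and 294 on wild type, 268, 200.3 and 811 on Snf5-/- and 141, 177, 197 and 252 on Brg1-/- arrays. Snf5-/- replicate 3, the array with the highest C1s1 and C1ra, was above all wild type arrays. The other Snf5-/- arrays lay below them as deposited, and after quantile normalization replicate 1, at 290.1, lay inside the wild type range of 232 to 317. The log2 difference of Snf5-/- from wild type was 0.39 ± 0.37 (SE), and -0.13 without replicate 3, so its sign turned on that array. All 4 Brg1-/- arrays lay below wild type on the deposited scale (log2 difference -0.77 ± 0.38), where 37.6% of all genes did so, and overlapped wild type after quantile normalization (-0.35 ± 0.34).

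Cfb, which encodes factor B, could hardly be measured. It read 20.4, 84.5 and 19.5 on wild type, 48.4, 51.2 and 36.9 on Snf5-/- and 6.9, 76.5, 10.5 and 11.1 on Brg1-/- arrays, with 6 of 10 arrays at or below background. The groups overlapped in all comparisons, and its log2 differences were 0.72 ± 0.89 (SE) in Snf5-/- and -0.65 ± 0.83 in Brg1-/-. Without wild type replicate 2 they were 1.43 and 0.05, so the sign in Brg1-/- turned on that array, and without Brg1-/- replicate 2 the difference in Brg1-/- was -1.46. It was the only one of the 6 genes with no probe set past the filter on dim probe sets. C1qa, C1qb and C1qc passed that filter through mutant arrays, since their wild type arrays were dim. After quantile normalization the wild type arrays read 55, 46.4 and 62.4 for C1qc, and 60.7, 47.3 and 81.8 for the brightest C1qb probe set.

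The probe set shared by C4a and C4b, genes of nearly identical sequence that it cannot tell apart, measured 207, 197 and 148 on wild type, 163, 186 and 166 on Snf5-/- and 169.5, 119.9, 183 and 129 on Brg1-/- arrays. The groups overlapped, and the log2 differences were 0.17 ± 0.23 (SE) and 0.10 ± 0.22. These values belong to either gene or to both.

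Over the 6 measured members, each by its brightest probe set, 3 (C1s1, C1qb and C1qc) lay wholly above wild type in Snf5-/- on both scales and 0 below, where 4.83% of all genes lay wholly above and 13.2% wholly below. In Brg1-/- 2 (C1qb and C1qc) lay wholly above wild type on both scales and 0 below, where 3.07% of all genes lay above and 14.2% below. The median log2 difference of the 6 was 1.79 in Snf5-/- and 1.02 in Brg1-/-, against 0.01 in both over all 12393 genes. Between the mutants 1 member, C1s1, lay wholly lower in Brg1-/- than in Snf5-/-, as did 7% of all genes, and 0 lay wholly higher, as did 1.77%. The median of the 6 was -0.60 against -0.01. After quantile normalization alone the members' counts were also 3, 2 and 1, where 29%, 29.9% and 13.9% of all genes did not overlap in either direction. Both comparisons with wild type share the wild type arrays, and nothing is read from these counts, since the members were chosen on these arrays.

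The profiles over arrays were compared within the set. Over the 10 arrays C1qa and C1qc had a Pearson r of 0.94, C1qb and C1qc of 0.89, and C1s1 and Serping1 of 0.71. After removing each group's mean these were 0.96, 0.76 and 0.87. C1s1 had an r of 0.58 with C1qb, 0.36 with C1qc and 0.18 with C1qa, and of -0.07, -0.22 and -0.27 within groups. These are descriptions over 10 arrays that share groups and single bright arrays. The genes outside the set with the profile most like C1s1 were Notch1 (r = 0.99), Pex2 (0.96) and Tut7 (0.96). For Serping1 they were Gas6 (0.94), Lamb2 (0.93) and Tob1 (0.92). For C1qc they were Rrp9 (0.90), Pttg1 (0.90) and Cxcl11 (0.89). C1qb was closest to Gm9706 (0.94), Parp12 (0.93) and Daxx (0.93). C1qa was closest to C3ar1, the receptor of the C3a fragment (0.94), Rrp9 (0.93) and Agap1 (0.89), and Cfb, near background, to Slc25a45 (0.89), Tsr2 (0.89) and Inpp5d (0.87).

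The rest of the complement system was read from a list of 49 other genes, of which 37 had a probe set with a single symbol and 13 passed the filter on dim probe sets. The 13 were tested in a limma fit over all 8403 genes, with Benjamini-Hochberg adjustment over all of them. Of the 6 measured genes of the terminal pathway, which forms the membrane attack complex, 0 passed the filter. A gene is written as having risen or fallen where adjusted p was under 0.05 on the quantile-normalized and the deposited scale.

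In Snf5-/- against wild type, 2 of the 13 rose and 3 fell. Of all genes 3.15% were higher, 7.46% lower and 10.6% either on both scales, and 18.1% were called after quantile normalization alone. The median log2 difference of the 13 was -0.04, against 0.02 over all tested genes. In Brg1-/- against wild type, 1 rose and 4 fell. Of all genes 3.43% were higher, 12.9% lower and 16.3% either on both scales, and 27.8% were called after quantile normalization alone. The median of the 13 was -0.37 against 0.02. In Brg1-/- against Snf5-/-, limma called 0 of 13 at the threshold and 1 at an unadjusted p under 0.05, where 2.43% of all genes were called on both scales (0.345% higher, 2.08% lower) and 4.37% after quantile normalization. By the tested probe set of each gene, C1ra, described above, was the one that rose in both mutants on both scales.

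Of 4 tested genes that start the cascade, Masp1 and Colec12 fell in both mutants. Masp1, the gene of a serine protease of the lectin pathway, measured 3453, 2980.2 and 2757 on wild type, 941, 1424 and 1395 on Snf5-/- and 1113, 875, 1324 and 1370.1 on Brg1-/- arrays. No mutant array reached the wild type range. It fell by 0.96 ± 0.17 (SE, log2) in Snf5-/- (limma adjusted p = 0.00292) and by 0.82 ± 0.16 in Brg1-/- (limma adjusted p = 0.00313). Masp1 had 4 other probe sets, all of them with lower means in both mutants, with log2 differences from -0.35 to -1.30. Colec12, a membrane collectin, measured 440.5, 389 and 285 on wild type, 159, 132 and 158 on Snf5-/- and 82, 100.2, 121.5 and 148 on Brg1-/- arrays. All mutant arrays lay below the wild type arrays. It fell by 1.03 ± 0.20 in Snf5-/- (limma adjusted p = 0.00495) and by 1.31 ± 0.19 in Brg1-/- (limma adjusted p = 0.000409). The ficolin gene Fcna did not pass in either mutant (limma adjusted p = 0.726 and 0.323).

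Among membrane regulators, which protect host cells from complement, Cd55 fell in both mutants and Cd59a in Brg1-/-. Cd55, a factor that speeds the decay of C3 convertases, measured 359, 273 and 299 on wild type, 149, 130.2 and 214 on Snf5-/- and 116, 179, 144 and 134 on Brg1-/- arrays. All mutant arrays lay below all wild type arrays. It fell by 0.69 ± 0.21 (SE, log2) in Snf5-/- (limma adjusted p = 0.0437) and by 0.72 ± 0.20 in Brg1-/- (limma adjusted p = 0.0187). The Snf5-/- call was lost without wild type replicate 1, 2 or 3 (limma adjusted p = 0.101, 0.0849 and 0.139), Snf5-/- replicate 1 or 2 (0.0999 and 0.109) or Brg1-/- replicate 3 (0.0581). The Brg1-/- call was lost without wild type replicate 1 or 3 (limma adjusted p = 0.0567 and 0.0759), and with the replicate number as a block adjusted p was 0.066 in Snf5-/- and 0.0644 in Brg1-/-. A second Cd55 probe set had lower means too, by log2 differences of -1.04 ± 0.31 in Snf5-/- and -0.53 ± 0.29 in Brg1-/-. On it the Brg1-/- arrays overlapped wild type after quantile normalization and lay below wild type as deposited only.

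Cd59a, an inhibitor of the membrane attack complex, measured 1012, 658 and 647 on wild type, 578, 611 and 460.4 on Snf5-/- and 414, 322, 382 and 412 on Brg1-/- arrays. As deposited, the Brg1-/- arrays lay below all others. It fell in Brg1-/- by 0.53 ± 0.16 (SE, log2; limma adjusted p = 0.0278), a call lost without wild type replicate 1, 2 or 3 (0.104, 0.0526 and 0.0678) or Brg1-/- replicate 2 or 3 (0.0718 and 0.0682). In Snf5-/- its difference of -0.18 ± 0.17 did not pass (limma adjusted p = 0.524). A second Cd59a probe set had log2 differences of 0.09 ± 0.23 in Snf5-/- and -0.51 ± 0.22 in Brg1-/-, and overlapped wild type in both after quantile normalization. By the tested probe set, the difference of -0.35 ± 0.16 between the mutants did not pass either (limma adjusted p = 0.222). It did without Snf5-/- replicate 3 (-0.56, limma adjusted p = 0.0384). Cr1l, the gene of the rodent regulator Crry, and Cd46 passed in neither mutant. For Cr1l the log2 difference in Brg1-/- was 0.22 ± 0.11 after quantile normalization (limma adjusted p = 0.159) and -0.28 on the deposited scale, so its sign depended on the scale.

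Of 2 tested soluble regulators, Clu rose in Snf5-/-. Clu, the gene of clusterin, which binds the terminal complex, measured 333, 392 and 419 on wild type, 624, 522 and 836 on Snf5-/- and 452, 334.5, 449 and 675 on Brg1-/- arrays. It rose by 1.04 ± 0.23 (SE, log2) in Snf5-/- (limma adjusted p = 0.00948), where all arrays lay above wild type. In Brg1-/- it passed after quantile normalization (0.73 ± 0.22, limma adjusted p = 0.0263) and not on the deposited scale (0.28, limma adjusted p = 0.295). Its 3 other probe sets had higher means in both mutants, with log2 differences from 0.97 to 1.83. As deposited, their differences in Brg1-/- were 1.34 ± 0.26 and 1.08 ± 0.31, with all arrays above wild type, and 0.53 ± 0.32, with overlap. Cfi, the protease factor I, did not pass in either mutant (limma adjusted p = 0.793 and 0.364).

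The remaining tested genes did not pass on both scales. Cfp, the gene of properdin, which stabilises the alternative convertase, ranged from 10.2 to 232 on the wild type arrays and from 58.5 to 279 on the Snf5-/- arrays, with a log2 difference of 1.88 ± 1.17 (SE, limma adjusted p = 0.298). The difference was 1.13 without Snf5-/- replicate 2, 1.02 without wild type replicate 3 and 3.30 without wild type replicate 2. C3ar1 had a log2 difference of 0.55 ± 0.43 in Snf5-/-, or 0.07 without Snf5-/- replicate 2, and 0.58 ± 0.40 in Brg1-/- (limma adjusted p = 0.413 and 0.311). A second C3ar1 probe set had log2 differences of 0.72 ± 0.32 in Snf5-/-, whose arrays lay above wild type on both scales, and 0.18 ± 0.30 in Brg1-/-. C1qbp, a mitochondrial protein that binds C1q, passed in Brg1-/- on the deposited scale (-0.55, limma adjusted p = 0.00263) and not after quantile normalization (0.05, limma adjusted p = 0.663). Its second probe set had log2 differences in Brg1-/- of -0.58 as deposited and 0.01 after quantile normalization.

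**Figure D3:**
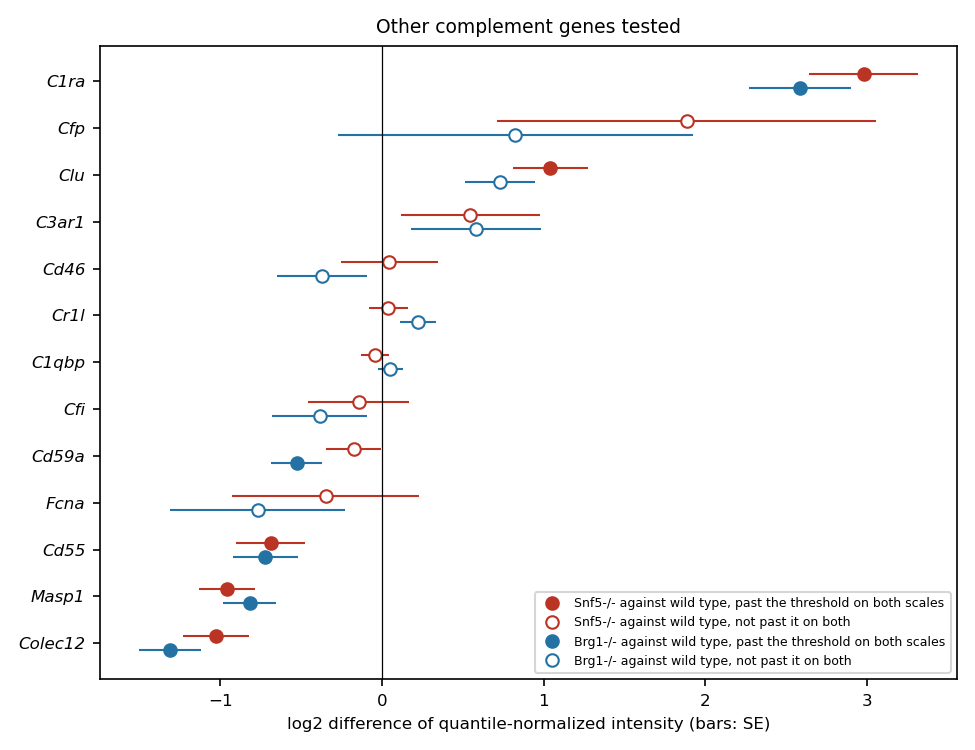
Log2 difference from wild type, with its SE, of the 13 tested complement genes outside the set of 8, in Snf5-/- and Brg1-/- cells, on the quantile-normalized scale. Filled points passed adjusted p 0.05 on both scales, with C1ra at 2.98 and 2.59 at one end and Colec12 at -1.03 and -1.31 at the other.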

How the data were processed

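The deposited table holds probe set intensity on a linear scale, made by the authors with MAS5, per the submitters' processing notes. The MAS5 version, scaling target and filters are not given in the sources used here. It has 22690 probe sets, 0 missing values and 0 pairs of identical arrays. Probe sets were named through the array's annotation, with symbols updated from RefSeq by gene ID for 20351 of 20380 probe sets with 1 symbol. A further 691 had several symbols and 1555 were not listed.

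Intensities were quantile-normalized over all probe sets (limma 3.58.1, R 4.3.3) and log2 transformed with no pseudocount. Deposited log2 values were the alternative. For tests, a probe set had to reach the 40th percentile of intensities on at least 3 arrays, and the one with the highest mean stood for its gene. Each gene was fitted with 3 group means (7 residual degrees of freedom), eBayes with trend, two-sided tests and Benjamini-Hochberg adjustment within each of 3 comparisons at a threshold of 0.05. Member differences and their SE come from the same model over all probe sets other than controls, unfiltered. Fits were tested on simulated data.

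Named genes were all members, every other complement gene past the threshold on both scales with the next by adjusted p up to 8 a comparison, and the 3 genes most correlated with each member. Members, lists, the background level and tests were chosen with earlier results of these arrays known. Alternatives were normalization, pseudocounts of 16 and 64, filters, probe set averaging, no trend, pairwise fits, array weights, a replicate block and leaving out each array. Replicate numbers were not taken as pairs in the main fit. Of 9 same-numbered pairs 1 correlated over 0.1, which with so few arrays cannot show whether the numbers pair arrays.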

Additional observations from a re-analysis of the deposited data

Results flagged for a closer look

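Among the 4 Brg1-/- arrays, Cfb lay far from the others on replicate 2, with 76.5 intensity units against 6.9 to 11.1 as deposited. After quantile normalization these were 93.3 against 8.3 to 11.5, and on the log2 of those the gap was 0.863 of the group's range. Chance gives such a gap in about 1 in 20 groups, and 1 of the 19 values checked in this way had one. Its probe set was at or below background on the other 3 arrays.

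The probe set that carries both C1rb and C1ra was left out of the comparisons because it has several symbols. Its 3 Snf5-/- arrays lay above all wild type arrays on both scales, with a log2 difference of 1.96 ± 0.43 (SE), and its part from each gene was not tested.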

How the results depend on the processing

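The count of other complement genes changed after quantile normalization was 5 in Snf5-/-, 6 in Brg1-/- and 0 between the mutants. With a 60th percentile filter the Snf5-/- count was 3, since fewer genes were tested. Leaving out 1 array gave 4 to 5 genes in Snf5-/-, 3 to 6 in Brg1-/- (3 without wild type replicate 1) and 0 to 1 between the mutants (1, Cd59a, without Snf5-/- replicate 3). With the replicate number as a block the counts were 4, 4 and 0, and Brg1-/- replicate 4 dropped out. Whether the numbers pair the arrays is not known. Members whose arrays do not overlap numbered 3 to 4 in Snf5-/-, 2 to 4 in Brg1-/- (4 without wild type replicate 1) and 1 to 2 between the mutants (2 without Snf5-/- replicate 2 or Brg1-/- replicate 2) when 1 array was left out. Fewer arrays overlap less often by construction.

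Signs turned for genes that did not pass. On the deposited scale Cr1l was -0.28 in Brg1-/- against wild type and -0.012 against Snf5-/-, and C1qbp was -0.15 against Snf5-/-, or -0.0034 with array medians centred. With single arrays left out, Cd59a ranged from -0.31 to 0.0297 in Snf5-/- against wild type and C1ra from -0.64 to 0.0771 in Brg1-/- against Snf5-/-, both highest without Snf5-/- replicate 3. The cause was not tested. Of 360 alternative values for member probe sets, 40 moved the fold by over 1.5 times and 18 turned the sign of the log2 difference, 28 and 12 of them by leaving out 1 array. By the unmoderated within-group SD of each probe set, which is 2.08 for C1qa, 1 moved by more. Single arrays were left out on the quantile-normalized scale only. Signal near background limits C1qa, Cfb and the dimmest C1qb probe set.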
